A study of Homo sapiens with 4 samples.

Results

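FIRRE, PVT1 and DLEU2 are long noncoding RNA genes whose transcripts also yield circular RNAs (circRNAs), loops closed when the end of a downstream exon is spliced back onto the start of an upstream one. All circRNAs of the deposited table whose host symbol is exactly FIRRE, PVT1 or DLEU2 were taken. They were 50 of 45182 listed circRNAs, 24 from FIRRE, 18 from PVT1 and 8 from DLEU2. The hosts were chosen by symbol, with their measured FPBcirc and CIRCscore values in knock-down and control cells already known, in particular the lower FIRRE circle level and the higher DLEU2 circle to linear ratio in knock-down cells. Their values in that comparison are therefore given as a description. Where counts past the threshold of the whole-table fits are given, they stand beside the share over all circles or hosts and serve as no evidence for these hosts.

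The study asked which circRNAs depend on DIS3, a ribonuclease that acts within the RNA exosome. DIS3 KD cells (clone 8, 2 libraries) carried an integrated, inducible Flag-HA DIS3 transgene in Flp-In T-REx 293 cells, which derive from human embryonic kidney, and their endogenous DIS3 gene had been targeted with CRISPR/Cas9. Control cells (2 libraries) carried the same transgene with no such knockout named, and the column names mark every library as grown without doxycycline, the inducer. The KD group is a single clone in which some DIS3 remained, so an effect of the clone and an effect of low DIS3 cannot be told apart.

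FIRRE is known as an X-linked RNA that stays in the nucleus, is built from repeated exon elements and binds the nuclear matrix protein HNRNPU. DLEU2 lies in the chromosome 13 region often lost in chronic lymphocytic leukaemia and is the host transcript of the miRNAs miR-15a and miR-16-1, which target BCL2. PVT1 lies next to MYC, is gained with it in many tumours, and gives a well-known circle named circPVT1.

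Backsplice levels are given as FPBcirc, backsplice fragments per gigabase of mapped sequence, which counts reads at a junction and needs no correction for length. KD replicates 1 and 2 held 352471 and 121507 backsplice reads, and control replicates 1 and 2 held 48895 and 55193. A single read was worth 0.00604 and 0.0209 FPB in the KD libraries and 0.0511 and 0.0489 FPB in the controls, so low circles were easier to see in KD cells. DIS3 itself had 7 and 2 backsplice reads in the KD libraries and 0 in both controls, too few to check the labels. Of the kidney progenitor and 293 markers PAX2, LHX1, EYA1 and NEFM, only PAX2 and EYA1 had a listed circle, and of PTPRC, CD3E, ALB and COL1A1, markers of other cell types, none had. EYA1 circles were read in every library, but the PAX2 circle only in KD replicate 1 (0.0121 FPB), which is too little to check cell identity.

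The position of the DLEU2 circles is set against the miRNAs that its transcript carries, whose mature forms are shown here because no circle spans them. Both share the seed (bases 2 to 8, in capitals), and the sequences are from RefSeq on GRCh38.p14, both on the minus strand of chromosome 13.
hsa-miR-15a-5p: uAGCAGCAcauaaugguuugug
hsa-miR-16-5p: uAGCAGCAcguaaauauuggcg
The MIR16-1 hairpin lies at 50048973 to 50049061 and the MIR15A hairpin at 50049119 to 50049201. None of the 8 DLEU2 circles spanned either hairpin. Of these circles 7 lay wholly on the low-coordinate side, which is downstream on the minus strand, and 1 lay on the other side. The nearest circle end was 3740 bases from the MIR16-1 hairpin, and the leading circle ended 4204 bases from it.

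**Figure D1:**
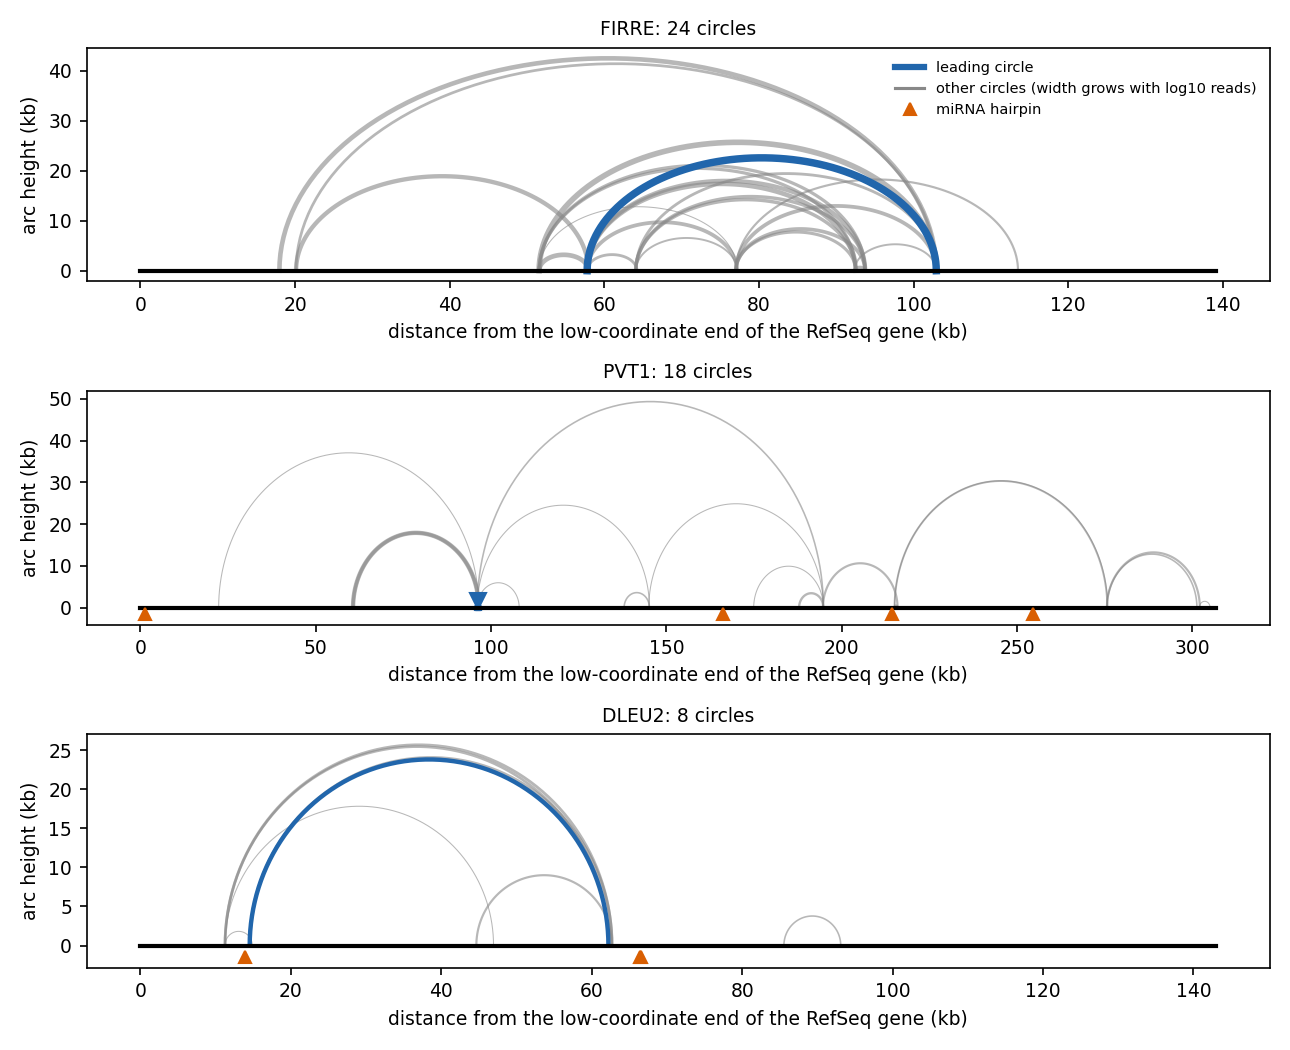
Each arc joins the start and end of a circle, drawn along its RefSeq gene (black line) in kilobases from the gene's low-coordinate end. Arc height is the arc's radius in kilobases, line width grows with log10 of the reads over 4 libraries, the leading circle is blue (a triangle for the 410-base PVT1 circle), and orange marks are miRNA hairpins. Of the 8 DLEU2 arcs, 7 end short of the hairpins of miR-16-1 and miR-15a, drawn as a single mark, and 1 lies beyond them.

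All 50 circles lay inside the RefSeq gene of their host (GRCh38.p14, the same assembly as hg38). The leading FIRRE circle spans chromosome X, 131749306 to 131794466, a distance of 45161 bases and 32.5% of the gene. The leading DLEU2 circle spans chromosome 13, 49997074 to 50044768, or 47695 bases and 33.4% of its gene. The leading PVT1 circle covers only 410 bases (chromosome 8, 127890589 to 127890998), 0.134% of the gene. Exon content could not be read from the table, so these are genomic distances and not circle lengths. RefSeq places 7 other genes over DLEU2, among them DLEU1 and TRIM13, and no circle in the 3 loci was assigned to another host.

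Among the 3 hosts FIRRE gave the most circular RNA, PVT1 less and DLEU2 least, in each of the 4 libraries. Summed over its circles, FIRRE had 10.3 and 13.96 FPB in KD replicates 1 and 2, against 33.0 and 22.7 FPB in control replicates 1 and 2. PVT1 had 4.77 and 5.59 FPB in the KD libraries and 4.65 and 5.09 FPB in the controls, and its groups overlapped. DLEU2 had 0.399 and 0.543 FPB in the KD libraries and 0.153 and 0.196 FPB in the controls. The KD sums lay below both control sums for FIRRE, as for 30.1% of all hosts tested, and above both for DLEU2, as for 21.2%. The ranges of the 3 hosts over the 4 libraries did not overlap. The leading FIRRE circle was the 4th most abundant of all circles in both KD libraries, and the most abundant in control replicate 1 and the 3rd in control replicate 2. The leading PVT1 circle ranked 19 and 20 in the KD libraries and 40 and 34 in the controls.

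**Figure D2:**
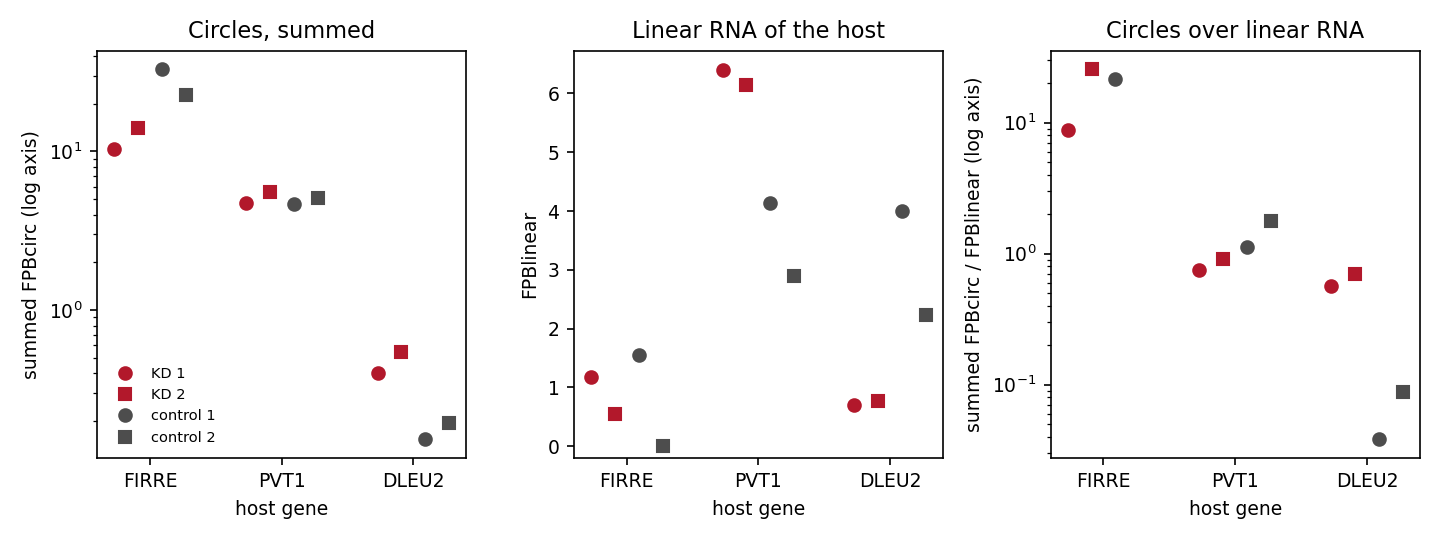
Summed FPBcirc (log axis), FPBlinear of the host and their ratio (log axis) for each host in KD replicates 1 and 2 (red) and control replicates 1 and 2 (grey). The ratio of FIRRE has no point for control replicate 2, where its linear signal is listed at 0.

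The order of linear RNA differed from that of the circles. FPBlinear, the linear signal of the host on the same scale, was recovered from the deposited ratio of circle to linear signal (CIRCscore). PVT1 had 6.41 and 6.14 FPB linear in the KD libraries and 4.14 and 2.89 FPB in the controls. DLEU2 had 0.707 and 0.772 FPB linear in the KD libraries, against 4.002 and 2.23 FPB in the controls. FIRRE had 1.18 and 0.548 FPB linear in the KD libraries and 1.55 FPB in control replicate 1, and was listed at 0 in control replicate 2. Both KD values lay above both control values for PVT1, as for 25.6% of hosts tested, and below for DLEU2, as for 45.1%. The linear levels of FIRRE and DLEU2 overlapped over the 4 libraries, and so did those of DLEU2 and PVT1. In units of 1 read the linear values were whole for PVT1 in every library and for DLEU2 in the KD libraries, but 78.25 and 45.667 for DLEU2 in control replicates 1 and 2 and 26.25 and 30.25 for FIRRE in KD replicate 2 and control replicate 1. The last 4 values are not whole reads, so the deposited linear signal was not a plain read count in every library. The part of this in the linear differences was not tested.

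Summed circles exceeded the recovered linear signal by far for FIRRE, were near it for PVT1 and were below it for DLEU2. The sum runs over all junctions of a host, whereas the linear signal is a single value whose rule is not given. For FIRRE that value was 30.25 units of 1 read in control replicate 1 and 0 in control replicate 2, so its ratio is uncertain. The FIRRE ratio of summed FPBcirc to FPBlinear was 8.77 and 25.5 in the KD libraries and 21.3 in control replicate 1, with no ratio for control replicate 2. The PVT1 ratio was 0.744 and 0.912 in the KD libraries, below both control values of 1.12 and 1.76. For DLEU2 it was 0.564 and 0.703 in the KD libraries, above both control values of 0.0383 and 0.0876. The ranges of the hosts over the libraries with a value did not overlap for FIRRE and PVT1, and the lowest PVT1 value, 0.744, stood just above the highest DLEU2 value, 0.703.

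The FIRRE circles of greatest abundance were lower in KD cells. The leading circle had 7.62 and 10.4 FPB in KD replicates 1 and 2 (1260 and 497 reads), against 26.2 and 17.1 FPB in control replicates 1 and 2 (513 and 350 reads). The groups did not overlap, with means of 8.99 ± 1.95 FPB in KD cells and 21.7 ± 6.44 FPB in controls (SD, n = 2 each). The log2 fold change was -1.25 (SE 0.29), fitted with limma on log2(FPBcirc + 0.0349). It was -0.76 with each library centred on its median and -0.63 with edgeR. The other 23 FIRRE circles together had 2.72 and 3.59 FPB in the KD libraries and 6.75 and 5.58 FPB in the controls, a KD to control ratio of 0.512, so the lower sum was not a matter of the leading circle alone. Fewer cells making a circle and less of it per cell cannot be told apart in such bulk samples.

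FIRRE circles were built from a small set of sites, numbered by position as S1 to S7 for starts and E1 to E7 for ends. On the minus strand, from which FIRRE is read, a start is the donor side of the backsplice and an end the acceptor side. The 7 starts and 7 ends allow 43 pairs, of which 24 were listed. End E6 (131794466) took 86.3% and 87.3% of FIRRE backsplice reads in the KD libraries and 86.8% and 87.9% in the controls. Start S4 (131749306) took 78.8% and 78.3% in the KD libraries and 86.2% and 81.7% in the controls. In 4 places a start and an end lay 148 to 153 bases apart, and a circle closed within such a pair, S4 to E1 (153 bases), was read 8 times in all. FIRRE exons hold repeats, so a short junction read may match several of them, and the sources used here do not say how the caller placed such reads.

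**Figure D3:**
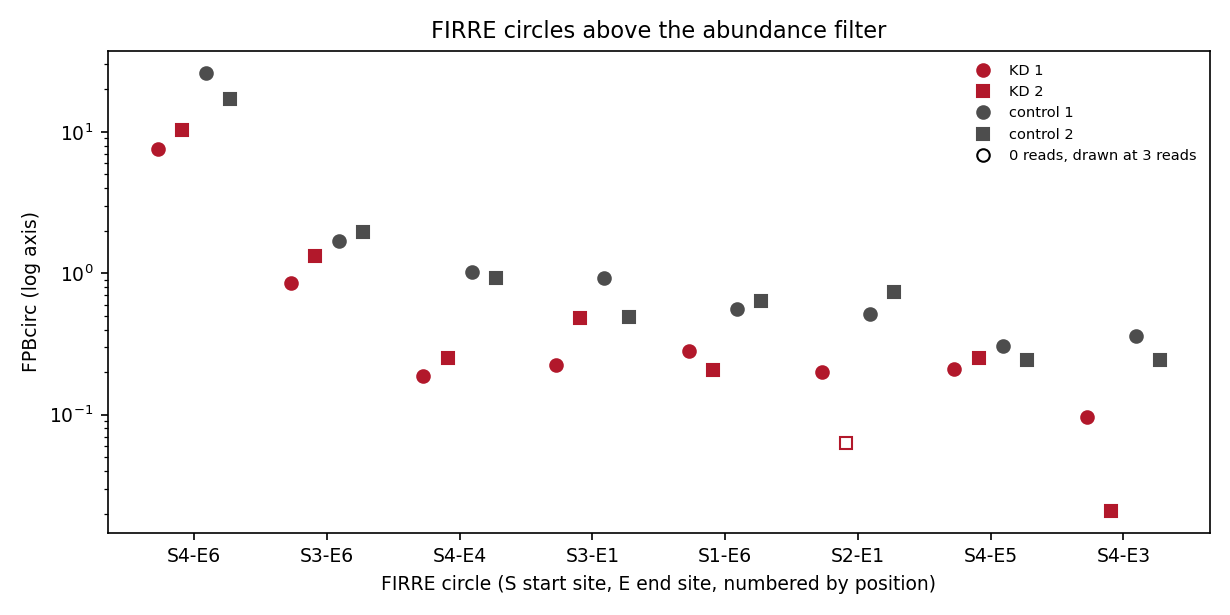
FPBcirc (log axis) of the 8 FIRRE circles above the abundance filter, in KD replicates 1 and 2 (red) and control replicates 1 and 2 (grey). An open symbol marks 0 reads and is drawn at the level of 3 reads. For the leading circle, S4-E6, KD values of 7.62 and 10.4 lie below control values of 26.2 and 17.1.

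Of the 50 circles, 11 passed the abundance filter of a mean of 0.174 FPB, 5 times the median value of 1 read. These were 8 from FIRRE, 2 from PVT1 and 1 from DLEU2. None of the 11 passed an adjusted p of 0.05 (limma, Benjamini-Hochberg over 2427 circRNAs), where 0.536% of all tested circles did (0.453% lower and 0.0824% higher in KD cells). An unadjusted p under 0.05 was found for 3 of the 11, beside 340 lower and 124 higher of all 2427. edgeR on the recovered reads called none of the 11, beside 1 of 2427, and DESeq2 called 1, beside 238 of 2427. In 7 of them both KD values lay below both control values, a pattern shown by 38.4% of all tested circles, and in 1 both lay above, as in 16.2%. A circle could pass this filter on a high level in 1 group alone. The leading DLEU2 circle had group means of 0.298 FPB in KD cells and 0.125 FPB in controls. The FIRRE circles S2 to E1 and S4 to E3 had 0.623 and 0.301 FPB in controls, but 0.0997 and 0.0588 FPB in KD cells. All 2427 tested circles met the same filter, so the shares hold such circles too. These shares are given for scale, since the comparison guided the choice of hosts.

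The next FIRRE circle by abundance, S3 to E6 (131743096 to 131794466), shares its end with the leading one. It had 0.852 and 1.34 FPB in the KD libraries and 1.69 and 1.96 FPB in the controls, again without overlap (log2 fold change -0.75, SE 0.37; -0.26 with centring and -0.10 with edgeR). The S4 to E4 circle (131749306 to 131784039) shares the leading start and had 0.187 and 0.250 FPB in the KD libraries, against 1.02 and 0.929 FPB in the controls. Its log2 fold change was -2.00 (SE 0.47), and -0.70 with a pseudocount of 1 FPB.

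A further 4 FIRRE circles above the filter had lower means in KD cells, with wide errors. S1 to E6 (131709498 to 131794466), the longest FIRRE circle by distance, had 0.284 and 0.209 FPB in the KD libraries and 0.563 and 0.636 FPB in the controls. S2 to E1 (131711651 to 131749458) had 0.199 FPB and 0 reads in KD replicates 1 and 2, and 0.511 and 0.734 FPB in the controls, so its KD libraries disagreed. For 0 reads in KD replicate 2, up to 0.0626 FPB is allowed at 3 reads, a limit that covers counting error only. S3 to E1 (131743096 to 131749458) had 0.224 and 0.480 FPB in the KD libraries and 0.921 and 0.489 FPB in the controls, which barely separates the groups. S4 to E3 (131749306 to 131768696) stood just above the filter with a mean of 0.180 FPB, from 16 reads and 1 read in the KD libraries and 7 and 5 in the controls. The FIRRE circle just below it, S6 to E6 (131768549 to 131794466, mean 0.146 FPB), had 0.0907 and 0.146 FPB in the KD libraries and 0.153 and 0.196 FPB in the controls.

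The S4 to E5 circle (131749306 to 131785258) was the FIRRE circle above the filter whose groups overlapped, with 0.212 and 0.250 FPB in the KD libraries and 0.307 and 0.245 FPB in the controls. Its log2 fold change was -0.22 (SE 0.64) and turned to 0.27 with centring, 0.41 with edgeR and 0.40 with DESeq2. E5 lies 1219 bases from E4. The pair was singled out after the values were seen, so it is described without a test. Of the reads ending at E4 or E5, the share at E5 was 58.7% (81 of 138 reads, exact 95% binomial interval 50.0 to 67.0%) and 67.9% (38 of 56, 54.0 to 79.7%) in KD replicates 1 and 2. In control replicates 1 and 2 it was 15.0% (6 of 40, 5.71 to 29.8%) and 26.9% (7 of 26, 11.6 to 47.8%). Group means were 63.3 ± 6.48% in KD cells and 21.0 ± 8.43% in controls (SD, n = 2 each). The intervals cover counting error within a library only. This share is a ratio within a library, so the library's scaling cancels in it. How reads were placed among the repeats of FIRRE exons is not known, and its part in this share was not tested.

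By start, the counts at these neighbouring ends were small. From S4, E5 had 35 and 12 reads and E4 31 and 12 in the KD libraries, whereas in the controls E5 had 6 and 5 and E4 20 and 19. From S3, E5 had 8 and 7 reads in the KD libraries and 0 in both controls, and E4 had 7 and 3 in the KD libraries and 4 and 0 in the controls. From S5, E5 had 16 and 3 reads in the KD libraries and 0 in both controls, while E4 had 8 and 3 in the KD libraries and 8 and 0 in the controls. From S6, E5 had 14 and 9 reads in the KD libraries and 0 and 2 in the controls, and E4 had 11 and 0 in the KD libraries and 2 and 0 in the controls, so here control replicate 2 had its reads at E5. The S7 to E5 circle (131783887 to 131785258) had 8 and 7 reads in the KD libraries and 0 in both controls. That allows up to 0.0750 FPB over the pooled controls, against 0.0484 and 0.146 FPB in KD replicates 1 and 2. KD replicate 1 lay below this limit, so no difference is read from these counts.

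The deposited CIRCscore of FIRRE differed by orders of magnitude between the control libraries. For the leading circle it was 6.42 and 18.6 in the KD libraries, and 16.9 and 1713 in control replicates 1 and 2. The last value is the circle level divided by the offset of 0.01 that the ratio carries, because the linear signal was listed at 0 there, although 464 backsplice reads of FIRRE were counted in that library. All 11 FIRRE circles read in control replicate 2 had that denominator. In that library FIRRE was 1 of 3 hosts with at least 100 backsplice reads and a linear signal listed at 0, the others being CDR1-AS and DNAH14. With control replicate 2 in the fit the log2 fold change of the CIRCscore was -3.96 (SE 2.47), and without it -0.63. No mean is given for the control ratio, and no direction is drawn from it.

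PVT1 backsplice reads came mostly from a single junction. The leading circle, the short 410-base loop known as circPVT1, had 4.27 and 5.22 FPB in the KD libraries (707 and 250 reads) and 4.09 and 4.84 FPB in the controls (80 and 99 reads). The groups overlapped, at 4.75 ± 0.668 FPB in KD cells and 4.47 ± 0.532 FPB in controls (SD, n = 2 each; log2 fold change 0.08, SE 0.28). The fold change was 0.58 with centring, 0.75 with edgeR and 0.74 with DESeq2, where it passed an adjusted p of 0.05. It took 89.6% and 93.3% of PVT1 backsplice reads in the KD libraries and 87.9% and 95.2% in the controls. Its CIRCscore was 0.668 and 0.851 in the KD libraries, below the control values of 0.988 and 1.68, while the linear signal was above the controls in both KD libraries. Both KD scores lay below both control scores in 42.6% of tested circles.

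The end of that junction, 127890998, was shared by 4 PVT1 circles that took 97.6% and 96.3% of reads in the KD libraries and 96.7% and 95.2% in the controls. A circle from 127855155 to this end, 35844 bases long in the genome, had 0.296 and 0.125 FPB in the KD libraries (49 and 6 reads), against 0.358 FPB and 0 reads in the controls (7 and 0 reads). The controls thus lay on either side of the KD values, and the log2 fold change of 0.98 (SE 1.58) was -0.77 without control replicate 2. A neighbouring start 8 bases away, 127855163, was read 14 and 2 times in the KD libraries and 0 times in the controls. An 855-base circle elsewhere in the gene, 128009590 to 128010444, had 0 and 5 reads in the KD libraries and 0 and 4 in the controls. The other 14 PVT1 circles had at most 5 reads each over all libraries.

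DLEU2 circles were scarce, and their summed KD values lay above the control values while those of the linear RNA lay below. The leading circle had 0.242 and 0.355 FPB in the KD libraries (40 and 17 reads) and 0.102 and 0.147 FPB in the controls (2 and 3 reads). Its groups did not overlap, with means of 0.298 ± 0.0799 FPB in KD cells and 0.125 ± 0.0315 FPB in controls (SD, n = 2 each; log2 fold change 1.06, SE 0.77). The fold change was 0.21 with a pseudocount of 1 FPB, 1.55 with centring, 1.87 with edgeR and 1.89 with DESeq2. The control level rests on 5 reads in all, and 3 reads are worth 0.153 and 0.147 FPB in control replicates 1 and 2. The CIRCscore was 0.351 and 0.466 in the KD libraries, against 0.0280 and 0.0699 in the controls, a log2 fold change of 3.06 (SE 0.53). Both KD scores lay above both control scores in 11.6% of tested circles.

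Of the 2 terms of the DLEU2 ratio, the linear one was lower in KD cells. The summed circles had a higher mean there, which rested on 3 and 4 control reads and did not pass an adjusted p of 0.05 in limma. Linear DLEU2 averaged 0.740 ± 0.0460 FPB in KD cells and 3.12 ± 1.25 FPB in controls (SD, n = 2 each), a log2 fold change of -1.97 (SE 0.29). The summed circles had one of 1.26 (SE 0.72). In units of 1 read linear DLEU2 was whole in the KD libraries (117 and 37), but 78.25 and 45.667 in control replicates 1 and 2. This split follows the groups, and its part in the linear difference was not tested. For PVT1 the linear log2 fold change was 0.85 (SE 0.27) and that of the summed circles 0.09 (SE 0.29), and for FIRRE the summed circles had -1.19 (SE 0.26). In the whole-table limma fits, 2 of the 3 hosts stood past an adjusted p of 0.05 for linear signal, PVT1 higher and DLEU2 lower, beside 34.6% of 2547 hosts (10.8% higher, 23.8% lower). PVT1 was no longer past it without control replicate 1, without control replicate 2, or without trend and robust moderation. For summed circles 1 of 3 stood past it, FIRRE, beside 3.55% of 2393 hosts (2.17% lower, 1.38% higher), and not without control replicate 1, KD replicate 1 or KD replicate 2, nor with edgeR. The lower FIRRE level was known when the hosts were chosen, so this count only restates the choice. For CIRCscore 0 of 9 circles stood past it, beside 0.11% of 1823. An unadjusted p under 0.05 was found for 1 of the 9, beside 326 lower and 54 higher of the 1823.

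Most of the rarer DLEU2 circles shared a site with the leading one or with each other. The circle from 49997074 to 50045232, with the same start and an end 464 bases further, had 5 and 6 reads in the KD libraries and 1 in each control. Circles from the start at 49993793 were read 15 and 3 times in the KD libraries and 0 times in the controls. The most read of them, ending at 50045232, had 7 and 2 reads in the KD libraries. The circle beyond the miRNA hairpins, 50068097 to 50075653, had 2 reads in KD replicate 1 and 0 in the other libraries. With 3 and 4 DLEU2 reads in the control libraries, isoform use could not be compared between groups for this host at this depth.

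By the mean share of the leading circle, isoform use was most concentrated in PVT1. DLEU2 had the lowest mean share, on few reads and with intervals that overlap those of FIRRE. The leading FIRRE circle took 73.7% (exact 95% binomial interval 71.5 to 75.8%) and 74.3% (70.8 to 77.6%) of the host's backsplice reads in KD replicates 1 and 2, and 79.5% (76.2 to 82.6%) and 75.4% (71.3 to 79.3%) in control replicates 1 and 2. The leading DLEU2 circle took 60.6% (47.8 to 72.4%) and 65.4% (44.3 to 82.8%) in the KD libraries and 66.7% (9.43 to 99.2%) and 75.0% (19.4 to 99.4%) in the controls. Averaged over the 4 libraries the leading share was 91.5 ± 3.33% in PVT1, 75.7 ± 2.63% in FIRRE and 66.9 ± 5.99% in DLEU2 (SD over 4 libraries). Each library counts alike in these means, though DLEU2 had 66 and 26 reads in the KD libraries and 3 and 4 in the controls. The KD values of DLEU2 lay below all 4 FIRRE shares, but both KD intervals of DLEU2 overlap the KD intervals of FIRRE. The control intervals of DLEU2 cover both other hosts. The order rests on DLEU2 circles below the abundance filter, since only the leading one passed it.

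**Figure D4:**
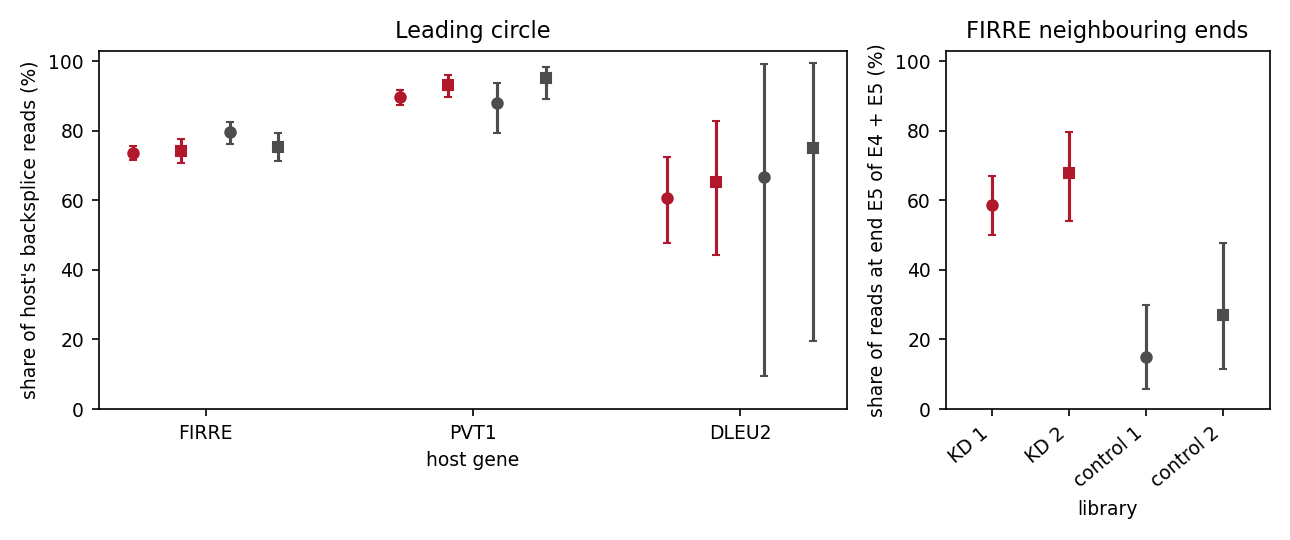
Left, share of a host's backsplice reads in its leading circle; right, share of FIRRE reads at end E5 among those at E4 or E5, both in percent for KD replicates 1 and 2 (red) and control replicates 1 and 2 (grey). Bars are exact 95% binomial intervals. In the right panel KD shares are 58.7% and 67.9%, and control shares 15.0% and 26.9%.

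Of the 50 circles, 11 were read in all 4 libraries, 25 in KD libraries only and 3 in control libraries only. KD-only circles held 136 of 4839 reads, and none exceeded 0.146 FPB in a library. FIRRE showed 23 and 20 of its circles in the KD libraries and 14 and 11 in the controls. Thinned to the mapped depth of control replicate 1, an alternative added after the values were seen, the expected numbers were 15.8 and 15.9 in the KD libraries and 14 and 11.0 in the controls. For PVT1 they were 4.76 and 5.41 in the KD libraries and 5 and 2.96 in the controls, and for DLEU2 3.37 and 3.01 in the KD libraries and 2 and 1.96 in the controls. Over all listed circles the same thinning gave 13652 and 13810 in the KD libraries and 8357 and 8475 in the controls. A larger number of distinct circles at equal depth in KD cells was thus a feature of the whole table. Total FPBcirc over all circles overlapped between groups, at 2130 and 2536 FPB in the KD libraries and 2500 and 2700 FPB in the controls. In number of circles FIRRE was among the 3.28% of hosts with 24 or more, against a median of 3 per host.

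Other genes tied to these hosts were looked up by lists and tested in the same limma fits at an adjusted p of 0.05. Of 9 genes whose products bind FIRRE or organise chromatin with it (HNRNPU, CTCF and cohesin subunits and regulators), 8 were tested for summed circles and 0 passed. An unadjusted p under 0.05 was found for 3 of the 8, beside 281 lower and 162 higher of all 2393 hosts. For linear RNA 7 were tested, of which 3 passed as lower and 0 as higher. These were SMC3 (log2 fold change -0.78), STAG1 (-0.83) and STAG2 (-0.78), all part of cohesin, the ring that holds chromatin loops. The median of the 7 linear values was -0.57, beside -0.21 over all 2547 hosts, and the background of 23.8% called lower applies to them. Of 40 other long noncoding RNAs looked up 14 had a listed circle, 4 were tested for summed circles, and 1 was higher, CDR1-AS, the miR-7 sponge (log2 fold change 3.36). Of these 40, 5 were tested for linear RNA and 0 passed, beside 34.6% of all hosts tested. Among the 5, CDR1-AS was listed at a linear signal of 0 in all 4 libraries and could not pass. FTX was listed at 0 in control replicate 2. An unadjusted p under 0.05 was found for 1 of the 5, beside 760 lower and 359 higher of all 2547 hosts. Of 14 neighbours of DLEU2 in 13q14 8 had a listed circle, of 8 neighbours of FIRRE in Xq26 3, and of 10 neighbours of PVT1 in 8q24 2. ASAP1 of the last list was the neighbour with enough signal to be tested, with a log2 fold change of -0.17 for summed circles and 0.08 for linear RNA.

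Hosts with the most similar pattern of summed circles over the 4 libraries were found by root mean square distance of log2 levels among 2393 hosts. Each host was centred on its own mean, so levels were not compared. The nearest to FIRRE, GTF2A1, had only 0.0846 and 0.146 FPB in the KD libraries and 0.358 and 0.245 FPB in the controls. For FIRRE they were GTF2A1, a general transcription factor subunit (distance 0.06), FKBP5, a co-chaperone of steroid receptors (0.07), and NRIP1, a nuclear receptor corepressor (0.08). For PVT1 they were PCSK6, FAM120A and ENSG00000286001 (0.05, 0.05 and 0.06), and for DLEU2 GART, RSF1 and EXOC6 (0.07, 0.08 and 0.12). GART had 0.153 and 0.196 FPB in the controls, the same sums that 3 and 4 reads gave for DLEU2. These distances describe 4 libraries and carry no test.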

How the data were processed

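CircRNAs were profiled in rRNA-depleted total RNA with a directional kit, per the labels' protocols. The submitters' processing notes name bcl2fastq 2.20, Bowtie2 2.3.5 and hg38; the sources used here do not name the circRNA caller. FPBcirc as deposited is a depth-normalised signal, and the deposited CIRCscore a ratio of it to host linear signal, per the file headers. Lines emptied in the deposited sheets numbered 7, and starts were converted to count from 1. Every nonzero FPBcirc was a whole multiple of 1 read (100% of values, tolerance 0.001), which gave the reads. FPBlinear was (FPBcirc + 0.01) / CIRCscore minus 0.01.

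Groups were compared over the whole table with limma 3.58.1 (R 4.3.3; trend, robust, two-sided) on log2(value + pseudocount), which understates changes of low values. The pseudocount was 0.0349 for FPB and 0.00448 for CIRCscore. CIRCscore was tested for circles above the filter with a value in all 4 libraries, and linear signal once per host with a value in all 4. The smallest p of an exact permutation test here is 0.333. Nothing says how the biological replicates were grown, so p-values measure the spread between these samples. Alternatives were other pseudocounts, filters and scalings, a replicate block, leaving out each library, edgeR 4.0.16 and DESeq2 1.42.0 on recovered reads. The fit was tested on simulated data. Members, lists and tests were chosen with earlier results of these data known. Circles named are those above the filter, the 3 most read per host, and those at the filter's edge; the E4 and E5 sites and circles sharing sites were added after values were seen. Intervals and read limits cover counting error only, since no molecular identifiers are named. Figures were drawn with matplotlib 3.10.9.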

Additional observations from a re-analysis of the deposited data

How the results depend on the processing

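Circles past the threshold numbered 0 of 11 for FPBcirc, beside 13 of 2427 over the whole table. With the filter at 10 times the value of 1 read they numbered 2 of 7, beside 191 of 1173. Without a filter they numbered 1 of 50, beside 109 of 45182. Under DESeq2 they numbered 1 of 11 (the leading PVT1 circle, log2 fold change 0.74), beside 238 of 2427. Leaving out a library leaves 1 in a group, so no count of circles is given for those fits. For CIRCscore, leaving out control replicate 1 also makes the FIRRE linear signal of 0 the control value. In the main CIRCscore fit, circles past the threshold numbered 0 of 9, beside 2 of 1823. Linear hosts past it numbered 2, PVT1 and DLEU2, and between 1 and 2 leaving out a library. Without control replicate 2 DLEU2 alone was called. Without control replicate 1, and without trend and robust moderation, the count stayed at 2 but PVT1 was lost and FIRRE gained as higher, on its linear signal of 0 in control replicate 2; its linear log2 fold change was 1.84, 4.59 without control replicate 1 and -0.91 without control replicate 2. For summed circles FIRRE alone passed, and 0 of 3 passed without a filter, without trend and robust moderation, under edgeR, and in 3 of the 4 fits that left out a library (range 0 to 1). Over the whole table FPBcirc calls numbered 13 and ranged from 0 to 238 in the fits with all 4 libraries. The cause of these moves was not tested.

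The log2 fold change of summed DLEU2 circles, 1.26, was 0.32 with a pseudocount of 1 FPB, 1.70 with edgeR and 1.68 with DESeq2; that of PVT1, 0.09, was 0.39 with edgeR and 0.36 with DESeq2. That of FIRRE stayed between -1.45 and -0.92 over its alternatives. Library median centring moved the median of tested circles from -0.33 to 0.17 and the calls from 2 higher and 11 lower to 1 and 0; the leading FIRRE circle was then at -0.76 and the leading PVT1 circle at 0.58. With circles above the filter as denominator the leading share was 79.7% in FIRRE, 95.8% in PVT1 and 100% in DLEU2. Over 4 libraries it ranged, leaving out each in turn, from 74.5 to 76.4% in FIRRE, 90.3 to 92.7% in PVT1 and 64.2 to 69.0% in DLEU2.

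Replicate numbers shared by the groups did not pair the libraries: deviations of same-numbered libraries correlated at 0.00289 over 2427 circles. With the replicate number as a block, 1 FPBcirc circle (leading FIRRE) and 1 CIRCscore circle (leading DLEU2) passed, beside 134 of 2427 and 9 of 1823 over the whole table. In all, 58 of 356 alternative values moved by more than the spread between replicates (counts, by over 1.5 times), and 9 changed sign, none of a called value (linear FIRRE, above, is not among them). Depth limits DLEU2 most, with 3 and 4 control reads.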

Other observations

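Some circles did span other miRNA hairpins of their hosts. The MIR3613 hairpin (chromosome 13, 49996415 to 49996501) lay inside 4 of the 8 DLEU2 circles, those from the start at 49993793, which held 18 reads, and 572 bases outside the leading circle. In PVT1 the MIR1205 hairpin lay inside 2 circles (3 reads), MIR1206 inside 1 (4 reads) and MIR1207 inside 2 (4 reads), while MIR1204 lay in none of the 18 circles. The leading PVT1 circle held none of these 4 hairpins.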
